A study of Canis lupus familiaris with 6 samples.

Results

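The genes that copy DNA and the genes that divide the cell were followed in MDCK cells, an established line of dog kidney epithelial cells, on single-colour Agilent canine expression arrays. 59 genes were listed by symbol: 24 that license origins, build DNA or supply its nucleotides (replication genes), 7 that control the step from G1 into S phase, and 28 that carry out mitosis. A gene was read through the non-control probes that bear its name on the array, and through the brightest of them, by mean log2 signal over the 6 arrays, where it had several. Of the 59 genes, 53 were found, with 77 of the 43603 probes, among 14228 named genes. All 53 were well above background on each of the 6 arrays. CCNB1, MAD2L1, CENPE, KIF20A, PRC1 and MKI67, all in the mitosis list, were not matched by name and were not analysed here.

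Every array was made from cells sorted for 1 engineered line. MDCK-pTR GFP-RasV12 cells, in which tetracycline induces GFP-tagged RasV12, an active Ras, had been given mCherry-β-catenin Δ131, a β-catenin without its N-terminus that is expressed at all times (β-cat ΔN/RasV12 cells). They were plated alone (single culture, 3 arrays) or among 10 MDCK mCherry-β-catenin Δ131 cells per RasV12 cell (mix culture, 3 arrays), so that the surrounding cells carried the same β-catenin and no RasV12. Both cultures received tetracycline for 24 h. Cells positive for GFP were then isolated by flow cytometry, and Cy3-labelled cRNA was made from the total RNA of those cells. Whether the line is 1 clone, and whether replicates came from separate cultures, is not given in the sources used here, so p-values measure the spread between these arrays, which may be technical. RNA of sorted cells was measured in bulk: a smaller share of cells in a cycle phase and less RNA per cell cannot be told apart.

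In a dividing cell the ORC complex, CDC6 and CDT1 load the MCM helicase onto origins during G1, and geminin (GMNN) blocks CDT1 afterwards. CDC45 and the GINS complex then turn the helicase on, the clamp PCNA and its loader RFC hold the polymerases on the template, and ribonucleotide reductase, thymidylate synthase and thymidine kinase provide deoxynucleotides. E2F factors, released by cyclin D and cyclin E kinases, drive most of these genes in late G1, whereas the mitosis genes are switched on later, in G2, through B-MYB and FOXM1.

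Values are normalised log2 signals: the log2 of the background-corrected signal minus the 75th percentile of the same array, so that 0 is that percentile and 1 unit is 2-fold. The 75th percentile lay between 161.0 and 233.1 intensity units and 61.1% to 65.7% of spots were well above background on each array, with no saturated spot. The arrays came from 2 slides. Slide 1 held replicate 1 of each culture and slide 2 held replicates 2 and 3, and the slides were also scanned at different resolutions and read with different software releases, which cannot be told apart from the slide. Differences between cultures (mix minus single) were tested with limma over 26623 probes, two-sided, with Benjamini-Hochberg adjustment, and a gene is said to pass or to be called where its adjusted p was under 0.05. Each slide held the same number of arrays of both cultures, so a slide term (slide block) leaves a difference as it is and changes only its error.

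The cells carried the epithelial markers of the line: 11 of the 13 listed had a probe and all 11 were measured, among them EPCAM and KRT18. Limma called none of them without a block. With the slide block it called 1 higher and 2 lower in mix culture, beside 3.99% and 3.23% of all probes. The differences of the 11 markers between cultures ran from -0.87 to 1.06. Of 10 markers of blood, vessel and connective tissue cells, PTPRC, COL3A1 and CDH5 were not tested for lack of signal, and none of the other 7 was called. Those 7 did have signal. Their mean by array ran from -2.49 to -1.50, against 3.01 to 3.23 for the 11 epithelial markers. HRAS read 6.42 ± 0.43 in single and 5.79 ± 0.36 in mix culture (SD, n = 3 each), a difference of -0.62 (limma, adjusted p = 0.608, or 0.0648 with the slide block). The groups overlapped. The probe is annotated to a dog HRAS transcript, and whether it also reads the introduced RasV12 was not tested. Of 12 measured genes that report Ras-ERK output, 10 were lower in mix culture, where 58.0% of all tested probes were lower. Their median difference was -0.52, beside -0.05 for all tested probes. PLAU (-1.77, adjusted p = 0.035) and SPRY4 (-1.36, adjusted p = 0.036) were called by limma without a block, beside 0.871% of all probes. With the slide block 6 of the 12 were called lower, beside 3.23% of all probes. The mean value of those 12 genes ran from 0.68 to 0.79 on the single culture arrays and from 0.01 to 0.28 on the mix culture arrays, so the groups did not overlap. Values of the Ras-ERK output genes thus moved with culture. The surrounding cells lacked RasV12, so lower output in RasV12 cells and surrounding cells carried through the sort cannot be told apart here. The part of either in the values of the replication and mitosis genes was not tested.

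None of the 53 genes differed between cultures at an adjusted p under 0.05, where 0.871% of all tested probes did. 4 genes had an unadjusted p under 0.05 in limma (TK1, CCNE2, KIF23 and TPX2), and so did 2324 of the 26623 probes. With the slide block, 4 of the 53 passed, beside 7.22% of all probes. TPX2, CDC25B and CCND1 were lower in mix culture, as were 3.23% of all probes by that rule, and CCNE2 was higher, as were 3.99%. With the replicate number as the block, which makes 3 pairs, TPX2, CDC25B and CCND1 passed and CCNE2 did not (adjusted p = 0.0806), beside 5.29% of all probes (2.04% lower). Which arrays of slide 2 belong to the same pair is uncertain, as given with the processing. The remaining 49 genes passed under neither of these fits. The 24 replication genes ranged from -0.39 to 0.35 and the 22 mitosis genes from -0.85 to 0.29.

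**Figure D1:**
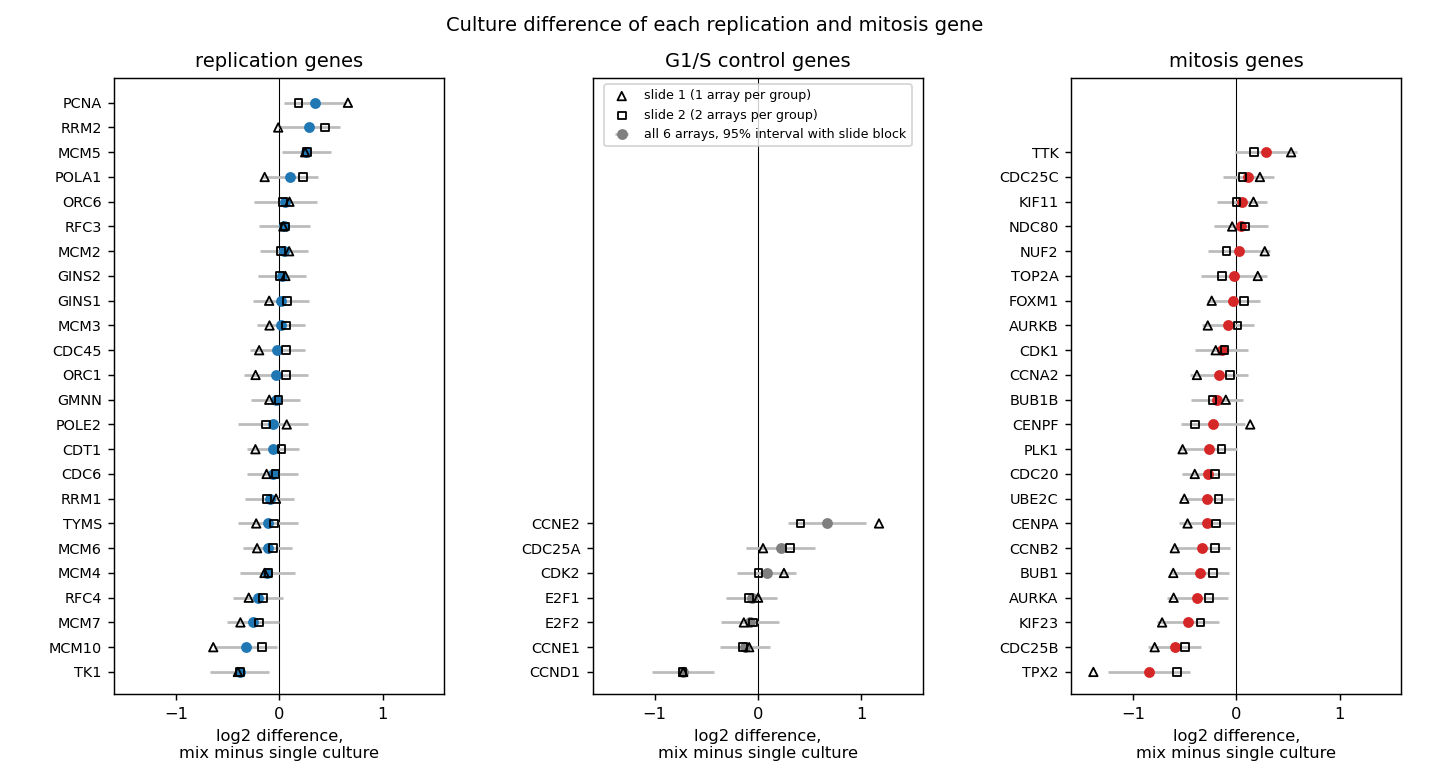
Difference between cultures (log2, mix minus single, horizontal axis) of each of the 24 replication, 7 G1/S control and 22 mitosis genes. Filled circles are the fit over 6 arrays with its 95% interval from the slide block, triangles slide 1 and squares slide 2. Most replication genes lie close to 0, TPX2 and CDC25B lie lowest among mitosis genes, and CCND1 (-0.73) and CCNE2 (0.67) lie at either end of the G1/S control genes.

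The probes behind those 4 genes are printed 5′ to 3′ with G and C in capitals, since the share of these bases matters for the slide comparison further on. Positions are on CanFam3.1, as the array design gives them. The brightest TPX2 probe maps to chr24:21242510-21244073 on the plus strand, a stretch longer than the probe itself. The other TPX2 probe lies at chr24:21263289-21263348. The CDC25B probe lies at chr24:17553472-17553531, the CCND1 probe at chr18:48505005-48505064 and the CCNE2 probe at chr29:39535606-39535665, all on the minus strand.
TPX2, brightest probe: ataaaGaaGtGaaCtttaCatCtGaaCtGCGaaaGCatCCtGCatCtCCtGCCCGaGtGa
TPX2, other probe: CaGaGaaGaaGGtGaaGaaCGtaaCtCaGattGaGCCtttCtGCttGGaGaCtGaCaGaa
CDC25B: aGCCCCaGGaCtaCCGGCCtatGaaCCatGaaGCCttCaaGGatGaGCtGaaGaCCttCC
CCND1: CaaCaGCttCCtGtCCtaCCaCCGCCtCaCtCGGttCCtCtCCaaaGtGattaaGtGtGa
CCNE2: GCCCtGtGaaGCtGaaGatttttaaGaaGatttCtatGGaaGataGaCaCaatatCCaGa

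TPX2, which nucleates spindle microtubules and activates Aurora A, was 1.8-fold lower in mix culture, the largest difference among the 53 genes over the 6 arrays. Its values were 1.72, 1.13 and 1.06 on single culture arrays 1 to 3, and 0.34, 0.61 and 0.42 on mix culture arrays 1 to 3. Every mix culture array lay below every single culture array. The means were 1.30 ± 0.37 and 0.46 ± 0.14 (SD, n = 3 each), a difference of -0.85 (SE 0.22, limma, adjusted p = 0.221). The slide block gave an SE of 0.17 and an adjusted p of 0.0264, and the replicate block an adjusted p of 0.0421. The difference was -1.39 on slide 1 and -0.58 on slide 2. The second TPX2 probe gave -0.60 (limma, adjusted p = 0.235, or 0.0234 with the slide block), again with no overlap between the groups.

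CDC25B, a phosphatase that starts the activation of CDK1 at the entry into mitosis, was 1.51-fold lower in mix culture. It read -0.63, 0.53 and 0.47 in single culture and -1.42, -0.05 and 0.05 in mix culture. The array of slide 1 was far below both arrays of slide 2 in either culture, and the groups overlapped. The difference was -0.60 (SE 0.47, limma, adjusted p = 0.849), with -0.79 on slide 1 and -0.50 on slide 2. With the slide block the SE was 0.11 and the adjusted p 0.0192.

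CCND1 encodes cyclin D1, the G1 cyclin that partners CDK4 and CDK6. It read 3.64, 4.48 and 4.45 in single culture and 2.92, 3.95 and 3.52 in mix culture, lower by 0.72 on slide 1 and by 0.73 on slide 2. The groups overlapped because slide 1 lay below slide 2 in both cultures. The means of 4.19 ± 0.48 and 3.46 ± 0.52 differed by -0.73 (SE 0.33, limma, adjusted p = 0.629), or 1.66-fold. The slide block gave an adjusted p of 0.016, and a 95% interval from -1.03 to -0.43.

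CCNE2, cyclin E2, which activates CDK2 for S phase, was higher in mix culture. It read -0.78, -0.44 and -0.61 in single culture and 0.40, -0.13 and -0.09 in mix culture, with every mix array above every single array. The difference was 0.67 (SE 0.20, limma, adjusted p = 0.324), or 1.59-fold, and it was 1.17 on slide 1 against 0.41 on slide 2. Its adjusted p in limma with the slide block, 0.04998, lay just under the threshold. CCNE1, which encodes the other E-type cyclin, read 2.34, 1.77 and 1.96 in single and 2.26, 1.75 and 1.69 in mix culture (difference -0.13, SE 0.23, limma, adjusted p = 0.961).

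These 4 calls depended on single arrays, as did the number of calls over all probes, which was 1923 with the slide block on 6 arrays and 692 to 1515 without any 1 of them. With the slide block, 0 of the 53 genes passed without single culture replicate 1, without single culture replicate 3 or without mix culture replicate 1, where 987, 692 and 994 probes did. Without single culture replicate 2 the 4 genes and KIF23 passed, without mix culture replicate 2 TPX2 and CCND1 did, and without mix culture replicate 3 only CDC25B did. The direction of TPX2, CDC25B, CCND1 and CCNE2 held in each of these fits. Without either replicate 1, the slide term takes up the lone array left on slide 1. Both of those fits therefore draw the culture difference from slide 2 only and are not separate checks. Slide 2 fitted by itself gave 0 of the 53 genes and 985 probes.

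**Figure D2:**
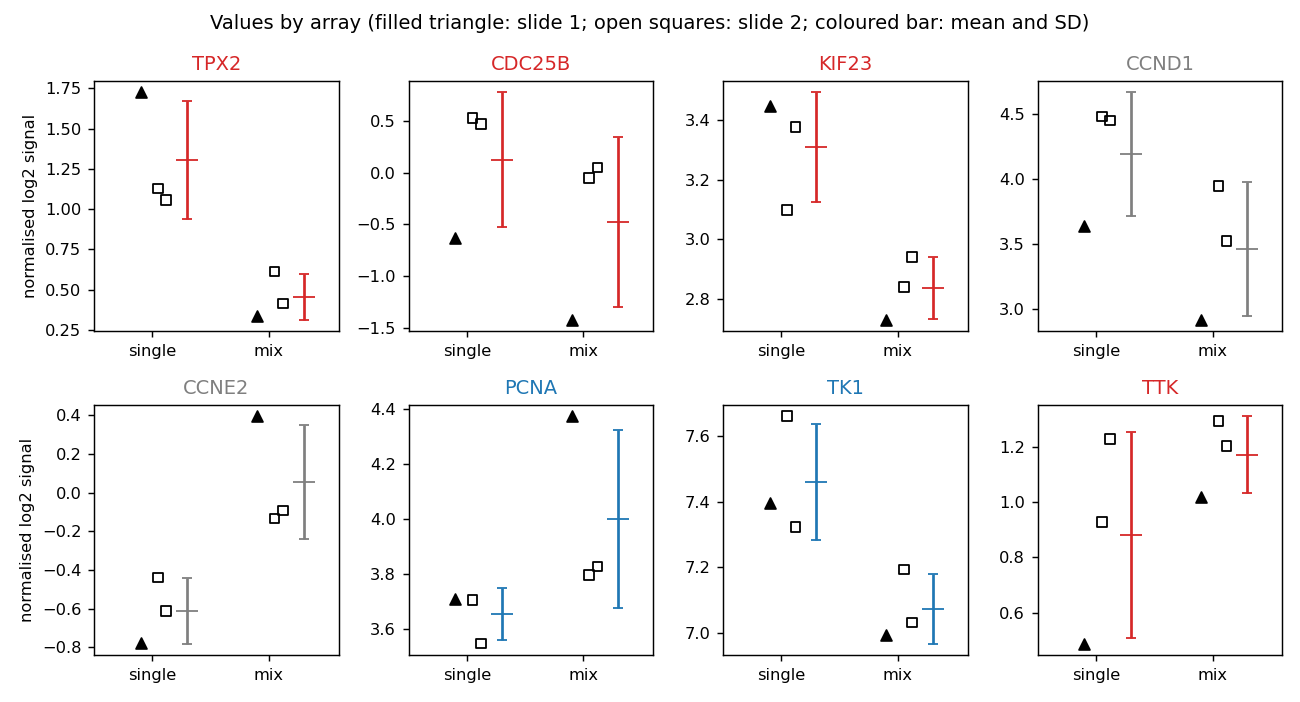
Normalised log2 signal (vertical axis, own range in each panel) of TPX2, CDC25B, KIF23, CCND1, CCNE2, PCNA, TK1 and TTK on the 3 single and 3 mix culture arrays. Triangles are slide 1, squares slide 2 and coloured bars mean and SD. TPX2, KIF23 and TK1 are lower and CCNE2 and PCNA higher on every mix culture array, whereas CDC25B and CCND1 are lower within each slide only.

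None of the 15 licensing and origin firing genes was called in either fit. Their differences had a median of -0.03, and the widest were those of MCM5 and MCM10. MCM5, a helicase subunit, read 2.86, 3.86 and 3.82 in single and 3.11, 4.02 and 4.19 in mix culture (difference 0.26, SE 0.38, limma, adjusted p = 0.948). MCM10, which helps start unwinding, read 1.29, 1.12 and 1.26 in single culture and 0.65, 0.95 and 1.10 in mix culture, without overlap (difference -0.33, SE 0.17, limma, adjusted p = 0.714). MCM7, another helicase subunit, was also without overlap, at 6.20, 6.17 and 6.24 in single and 5.82, 5.92 and 6.10 in mix culture (difference -0.26, SE 0.15, limma, adjusted p = 0.757), but its second probe (-0.14) overlapped. The other helicase subunits MCM2, MCM3, MCM4 and MCM6 lay between -0.12 and 0.04. The loading factors CDC6 (-0.07), CDT1 (-0.06), ORC1 (-0.03) and ORC6 (0.06), the inhibitor GMNN (-0.04), and the helicase activators CDC45 (-0.02), GINS1 (0.02) and GINS2 (0.02) were all within 0.07 of 0.

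At the fork, PCNA read 3.71, 3.71 and 3.55 in single and 4.37, 3.80 and 3.83 in mix culture, each mix array above each single array. Its difference was 0.35 (SE 0.20, limma, adjusted p = 0.756, or 0.148 with the slide block), at 0.66 on slide 1 and 0.19 on slide 2. The second PCNA probe gave 0.13 (limma, adjusted p = 0.961), with overlap between the groups and -0.05 in pair 2. The clamp loader subunits RFC3 (0.05) and RFC4 (-0.21, lower on every mix array), the primase-associated polymerase POLA1 (0.10) and the leading strand polymerase subunit POLE2 (-0.06) were not called.

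Of the genes of nucleotide supply, RRM2 and RRM1 encode both parts of ribonucleotide reductase. RRM2 read 0.39, 0.22 and 0.43 in single and 0.37, 0.77 and 0.77 in mix culture: the slides disagreed, with -0.01 on slide 1 and 0.44 on slide 2. Its difference of 0.29 (SE 0.17) had an adjusted p of 0.768 in limma, and RRM1 differed by -0.09. TK1, the salvage kinase for thymidine, was at 7.40, 7.66 and 7.32 in single and 6.99, 7.19 and 7.03 in mix culture, without overlap. It was lower by 0.40 on slide 1 and by 0.38 on slide 2 (difference -0.39, SE 0.16, limma, adjusted p = 0.567, or 0.103 with the slide block), and its 4 probes gave -0.40 to -0.30, 2 of them with overlap. TYMS, which makes thymidylate anew, differed by -0.11.

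The remaining G1/S genes had small differences against their errors. CDC25A, which activates CDK2, read -3.51, -3.16 and -2.75 in single and -3.46, -2.77 and -2.51 in mix culture (difference 0.22, SE 0.30, limma, adjusted p = 0.943). CDK2 itself read -1.26, -0.38 and -0.56 in single and -1.00, -0.60 and -0.33 in mix culture (0.09, SE 0.28, limma, adjusted p = 0.979). Values of E2F2 were -3.28, -2.73 and -2.60 against -3.42, -2.87 and -2.56 (difference -0.08, SE 0.28, limma, adjusted p = 0.981). E2F1 differed by -0.06. In each of these 4 genes the 2 cultures overlapped and slide 1 lay below slide 2.

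Genes of mitosis were more often lower than higher, 17 of 22 against 14 of 24 replication genes, where 58.0% of all tested probes were lower. Of the 8 genes measured for mitotic entry, 7 were lower. These were CDC25B, AURKA (-0.38), the cyclins CCNB2 (-0.34) and CCNA2 (-0.17), the kinases PLK1 (-0.27) and CDK1 (-0.14), and the transcription factor FOXM1 (-0.03). CDC25C, a second phosphatase acting on CDK1, was the exception, at -2.09, -1.15 and -1.03 in single and -1.86, -1.10 and -0.96 in mix culture (difference 0.12, SE 0.36, limma, adjusted p = 0.979). CDC20 (-0.27) and UBE2C (-0.28), which direct the anaphase-promoting complex that ends mitosis, were both lower on both slides. None of these genes except CDC25B passed with the slide block.

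Spindle checkpoint genes were mixed. TTK, the kinase that starts checkpoint signalling, read 0.49, 0.93 and 1.23 in single and 1.02, 1.29 and 1.20 in mix culture (difference 0.29, SE 0.22, limma, adjusted p = 0.838), the highest difference among the mitosis genes. The checkpoint kinases BUB1 (-0.36) and BUB1B (-0.19) and the chromosomal passenger kinase AURKB (-0.09) were on the other side of 0. Of the kinetochore genes, NDC80 (0.04) and NUF2 (0.03), which bind microtubules as parts of 1 complex, lay near 0. CENPA (-0.29), the histone variant that marks centromeres, was lower on every mix array, and CENPF differed by -0.22.

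Besides TPX2, the spindle and cytokinesis genes measured were KIF23 and KIF11. KIF23, the motor of the central spindle at cytokinesis (chr30:33337256-33337315), read 3.45, 3.10 and 3.38 in single and 2.73, 2.84 and 2.94 in mix culture. Its groups did not overlap, and the difference was -0.47 (SE 0.16, limma, adjusted p = 0.439, or 0.0704 with the slide block). KIF11, the motor that separates spindle poles, read 1.71, 1.96 and 2.12 in single and 1.87, 2.06 and 2.02 in mix culture (0.06, SE 0.17, limma, adjusted p = 0.978). TOP2A, which untangles sister chromatids, differed by -0.03.

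10 of the 53 genes had groups without overlap. MCM7, MCM10, RFC4, TK1, AURKA, CENPA, KIF23 and TPX2 were lower in mix culture, against 8.68% of all probes, and PCNA and CCNE2 were higher, against 7.83% of all probes. The 8 lower genes are 15.1% and the 2 higher ones 3.77% of the 53 genes. By slide, 26 genes were lower on both, 12 were higher on both and 15 changed sign. Of all 26623 tested probes, 11270 were lower on both, 7542 were higher on both and 7811 changed sign.

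The median difference was -0.04 for replication genes and -0.21 for mitosis genes, beside -0.05 for all tested probes. Across same-numbered arrays the replication median was -0.11, 0.07 and -0.04 (SD 0.09, n = 3 pairs) and the mitosis median -0.33, -0.12 and -0.20 (SD 0.11). The replication median was thus above the mitosis median by 0.22, 0.19 and 0.16 (SD 0.03), and by 0.17 over all arrays. Which arrays of slide 2 form a pair is uncertain, so these SDs over pairs may not give the spread. The gap is a description of 2 lists whose members are not replicates, with no test. The gap was 0.055 without mix culture replicate 1, 0.091 without single culture replicate 2 and 0.096 without single culture replicate 3. The mitosis median was -0.10 without mix culture replicate 1 and also -0.10 without single culture replicate 3. With the slide block kept, leaving out an array put the gap between 0.127 and 0.177 and the mitosis median between -0.25 and -0.14.

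**Figure D3:**
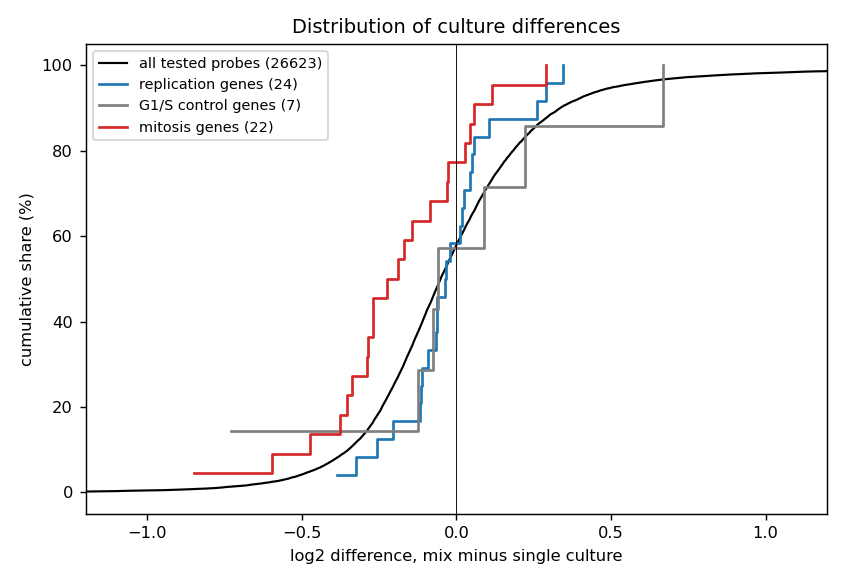
Cumulative share (vertical axis, %) of genes at or below a given difference between cultures (log2, mix minus single, horizontal axis) for the replication, G1/S control and mitosis genes and for all 26623 tested probes. The replication curve crosses 0 near the curve of all probes, and the mitosis curve lies to its left, with 17 of 22 genes below 0.

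**Figure D4:**
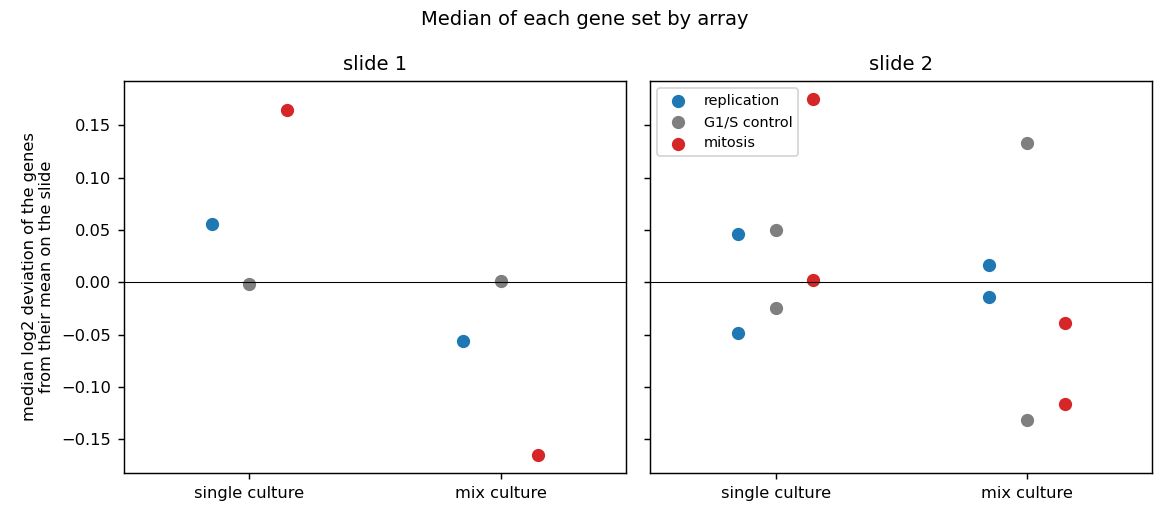
Median deviation of each gene set (log2, vertical axis) from its mean on the same slide, for every array. On slide 1 the mitosis genes sit at 0.17 in single and -0.17 in mix culture, on slide 2 at 0.00 and 0.18 against -0.12 and -0.04, and the replication genes stay within 0.06 of 0 on all 6 arrays.

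The 95% intervals give the sizes that these arrays still allow. With the slide block the interval lay inside a 2-fold change in either direction for 50 of 53 genes (94.3%, against 93.9% of all probes), including 24 of 24 replication genes, and the other 3 were TPX2, CCND1 and CCNE2. Without the block this held for 45 genes.

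Between slides the same genes differed more than between cultures. With culture in the fit, 26 of 53 genes (49.1%) differed between slide 2 and slide 1 at an adjusted p under 0.05 in limma, where 47.2% of all probes did, 19 higher and 7 lower on slide 2. The median size of the difference was 0.34 between slides and 0.12 between cultures, and the slide difference was the larger one in 39 of 53 genes. Over all tested probes these sizes were 0.35 and 0.17, and the slide difference was the larger one in 18497 of 26623. Among the 53 genes it ran from -0.85 (TYMS) to 1.29 (CDC20). Replicate 1 alone was on slide 1, so slide, scan and replicate cannot be told apart here.

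The slide difference moved with the base composition of the probe. Over the 53 brightest probes it had a Pearson's r of 0.776 and a Spearman's rho of 0.771 with the percentage of G and C, against 0.404 and 0.471 over all tested probes. Probes are not independent replicates and share the arrays, so this is a description. All 8 genes with a probe of at least 50% G and C were higher on slide 2 (median 0.91), and 12 of 13 genes with a probe of at most 37% were lower (median -0.34). Of all tested probes, 4459 of 6103 with at least 50% were higher (median 0.40) and 5151 of 6268 with at most 37% were lower (median -0.36). The difference between cultures had an r of -0.178 and a rho of -0.11 with composition over the 53 probes. CDC20 (48.3% G and C, 1.29 higher on slide 2) and POLE2 (35.0%, -0.70) lie near both ends of the slide difference, beside the CDC25B probe (55.0%, 1.27) and the CCNE2 probe (36.7%, -0.13) above. The CDC20 probe lies at chr15:16803858-16803917 and the POLE2 probe at chr8:26268081-26268140, both on the minus strand.
CDC20: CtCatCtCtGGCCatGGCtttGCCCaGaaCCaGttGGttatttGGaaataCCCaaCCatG
POLE2: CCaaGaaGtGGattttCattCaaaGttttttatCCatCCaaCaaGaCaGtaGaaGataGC

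**Figure D5:**
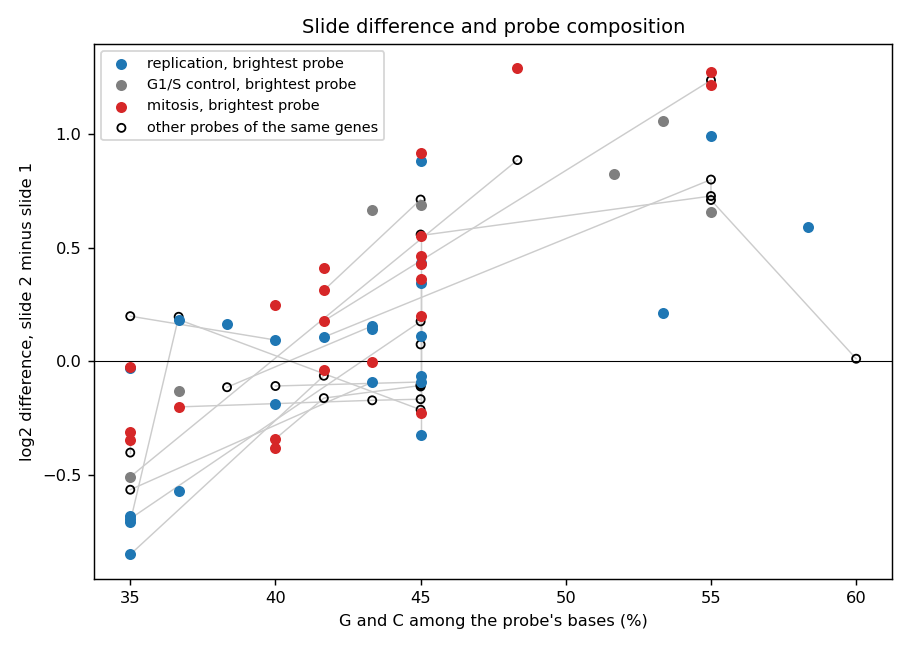
Difference between slides (log2, slide 2 minus slide 1, vertical axis) against the percentage of G and C in the probe (horizontal axis) for the 53 brightest probes (filled) and the other probes of the same genes (open), with lines joining probes of 1 gene. Probes of at least 50% G and C lie above 0 and most probes of at most 37% lie below it.

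Probes of a single gene could differ in the same way. The CCNE1 probe of 35.0% G and C was at -0.51 between slides and its probe of 48.3% at 0.88. For MCM6 the probe of 35.0% was at -0.69 and that of 45.0% at 0.18, and for AURKB the probe of 41.7% was at 0.18 and that of 55.0% at 1.23. Of 9 genes whose probes differ by more than 5 points of G and C, the richer probe was the higher one on slide 2 in 7, and CDC6 and TK1 were the exceptions. For TK1 only the probe of 60.0% (0.01) went against the order, since both probes of 55.0% (0.80 and 0.71) were above the one of 41.7% (0.11). POLE2 had a second probe of 36.7% at 0.20, far from its first one at nearly the same composition. For the difference between cultures, 15 of 20 genes with several probes had the same sign in all of them. The range of that difference over a gene's probes had a median of 0.09 and a maximum of 0.28 (NUF2). Sign agreement and range were not summarised for the slide difference, so the 2 differences are not compared by them.

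After each array's trend on composition was removed, 23 of the 53 genes still differed between slides, 22 higher and 1 lower on slide 2, beside 37.9% of all probes. The correction removed only part of the relation in these genes, whose r with composition was still 0.598. TPX2, CDC25B, CCND1 and CCNE2 were then called with the slide block as before, and none was called without it.

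Cell cycle genes outside the 59 were given by 3 further lists. Of 50 other replication genes tested, 26 were higher and 24 lower (median 0.03). Limma called none with or without the slide block, beside 7.22% of all probes with it and 0.871% without. Among the widest differences were those of BRCA1 (0.43) and RPA1 (0.40), a repair factor and the large subunit of the single-strand binding protein, and of RNASEH2A (-0.42), which removes RNA from DNA. Of 62 other mitosis genes, 42 were lower (67.7%, median -0.09, beside 58.0% of all tested probes). Without overlap, 11 were lower (17.7%, beside 8.68%) and 1 was higher. With the slide block 3.23% of all probes were called lower. Of the 62 genes ANLN, the contractile ring protein anillin, was the only one called, and not without a block (-0.65, limma, adjusted p = 0.183, or 0.013 with the slide block and 0.0238 with the replicate block). RACGAP1, the partner of KIF23 in the central spindle, followed at -0.53, and STIL and SMC4 were highest at 0.36 each.

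Among 35 tested inhibitors and other controllers of the cycle, 22 were lower (median -0.08). CCND2, cyclin D2, was lower by 0.69 on slide 1 and by 0.48 on slide 2 and passed with a block but not without (-0.55, limma, adjusted p = 0.563, or 0.025 with the slide block and 0.0481 with the replicate block). It was the only one of the 35 called with the slide block, which called 7.22% of all probes. MYC was at -0.43. The antiproliferative gene BTG2 (0.50) and the CDK inhibitor CDKN2B (0.44) were highest.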

How the data were processed

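The authors deposited one Agilent Feature Extraction file per array, whose intensity column is corrected for background and detrended within the array but not scaled between arrays. They also deposited a table of log2 values. These proved centred per probe within each slide. For 100% of probes the values summed to about 0 on slide 1 and had a median of about 0 on slide 2. Every column's median was also 0. Set against the scanner files, the table's mix culture columns 2 and 3 matched each other's file (r = 0.973 and 0.976) rather than their own (0.365 and 0.328). That changes no group. Which side carries the swap is not known, so the replicate block and the values by pair may join the wrong arrays of slide 2. How the authors made that table is not given in the sources used here.

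Control spots and 5 to 9 outlier spots per array were left out, spots of a probe were averaged, and log2 intensity minus the array's 75th percentile was fitted in limma 3.58.1 (R 4.3.3) without a block, over probes well above background on all arrays of at least 1 group. The scripts were tested on simulated data. Alternatives were the slide or replicate number as block, slide 2 alone, normexp (offset 50), quantile normalisation, other filters, the deposited log2 table, the mean of a gene's probes and leaving out each array. The composition of probes, its thresholds, its correction and leaving out arrays under the slide block were chosen after seeing the data.

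The replicate numbers in the titles were treated as pairs. Deviations from the group means correlated at 0.801 between the arrays numbered 1, which alone shared slide 1. On slide 2 the same-numbered arrays correlated at 0.53 and 0.572, and those of different number at 0.61 and 0.632. These values therefore give no ground for pairing by number.

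Genes and lists were chosen with earlier results of these data known. Values by array are given for genes called with or without the slide block and for the 3 largest differences in each direction of each of 3 gene sets. From other lists, genes called without a block and the 2 largest differences each way are named, and markers by count, except that some results are not reported here. All 53 symbols were found in the RefSeq gene table. Promoter sequences were not used here, so a planned description of promoter motifs was not made. The number of arrays limits the precision.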

Additional observations from a re-analysis of the deposited data

How the results depend on the processing

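The count of probes called, 232 by limma without a block, was 1923 with the slide block (1063 higher, 860 lower), 1408 with the replicate block, 142 with the filter of well above background on all 6 arrays, 101 with normexp, 1826 with the authors' table and the slide block, 985 on slide 2 alone and 1987 with the composition correction and the slide block. Leaving out 1 array gave 91 to 247 calls without a block and 692 to 1515 with the slide block (987 and 994 without replicate 1 of single and mix culture, 1131 and 1018 without mix culture replicates 2 and 3, 1515 and 692 without single culture replicates 2 and 3). With the slide block, both fits without a replicate 1 draw the culture difference from slide 2 only. The count of called genes among the 53 was 0 without a block, also under each other filter, normalisation and single array left out, 4 with the slide block, 3 with the replicate block, 3 with the authors' table and the slide block, and 4 with the composition correction and the slide block. Without 1 array it was 0 to 0 with no block and 0 to 5 with the slide block. The paired fit (replicate block) thus moved both counts, and among the 53 genes it changed the call of TPX2, CDC25B and CCND1. The gap between the replication and mitosis medians, 0.171, was 0.117 with normexp, 0.204 with quantile normalisation and 0.205 with the authors' table. Without 1 array it ran from 0.055 to 0.225, and from 0.127 to 0.177 with the slide block. The mitosis median ran from -0.272 to -0.098 without 1 array. The replication median moved by less than its spread throughout.

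Leaving out 1 array turned the sign of 6 of the 18 genes given by array. Without a block, MCM5 ran from -0.065 to 0.594, CDK2 from -0.175 to 0.269, CCNE1 from -0.305 to 0.033, E2F2 from -0.281 to 0.157, CDC25C from -0.217 to 0.394 and KIF11 from -0.053 to 0.15. CDK2 and CDC25C turned where replicate 1 of single culture or replicate 3 of mix culture was left out, E2F2 where replicate 3 of single or replicate 1 of mix culture was, and MCM5, CCNE1 and KIF11 where replicate 1 of single culture was. With the slide block only E2F2 turned, at 0.004 without mix culture replicate 2. Leaving out an array without a block also unbalances the slides. The cause of the other changes was not tested. Groups of 3 arrays are too small to single out an outlying array by Dixon's test.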
